A study of Mus musculus with 6 samples.

Results

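Cd83 was 1 of 1228 genes in the deposited expression table of Bv2 cells, and it was taken by its symbol, as the row whose gene column reads Cd83. It was chosen with its difference between the groups already known, so its own values are described and are not tested. Bv2 is an immortalised mouse microglial line, labelled here as wild type. RNA was sequenced in 3 control libraries and in 3 libraries of cells that went through OGD/R, in which oxygen and glucose are withdrawn and then restored as a culture model of ischemia. The OGD/R cells had 30 min in nitrogen, 2 h without glucose and serum at 1% oxygen, and 24 h back in standard medium with serum. The protocol given for all 6 samples also mentions an infection 72 h earlier and does not say which samples it concerns. It gives no medium change for the controls, so infection or handling of 1 group alone and the deprivation cannot be told apart. No label ties the replicates to separate cultures, and the spread on which each p-value rests may be technical.

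CD83 is a surface glycoprotein of the immunoglobulin superfamily. It is best known as a marker of mature dendritic cells, and it is also seen on activated B cells, macrophages and microglia. Its membrane form is known to keep MHC class II and the costimulatory ligand CD86 at the cell surface by opposing the ubiquitin ligase MARCH1, and a shed soluble form has been described as an inhibitor of immune responses. Its transcription is known to respond to NF-kB.

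The gene, ENSMUSG00000015396, spans 43784775 to 43803132 on the plus strand of chromosome 13 (GRCm38). GENCODE M21 lists 2 transcripts for it. The coding transcript has 5 exons, 2477 nt and a coding part of 588 nt for 196 amino acids. The other transcript, of 2158 nt, is annotated as a retained intron. Together their exons cover 2572 nt. No other annotated gene overlaps the locus on either strand, so reads of Cd83 could not be shared with an overlapping gene of that annotation.

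All genes of the table differed between these groups by near 2-fold or more. Its 605 higher genes had log2 ratios of group means of 1.03 and above, and its 623 lower genes had -0.97 and below. It was therefore picked on these samples, by an unstated rule, and genes outside it are not analysed here. Read as multiples of a smallest step, low FPKM values gave library sizes of 7627000 to 8247000 units in control and 8032000 to 8665000 in OGD/R, where a unit may be a read or a read pair. Counting noise alone gives a chi-square per gene of about 1 if units are independent, and more if they are both reads of a pair. The value was 2.37 between control replicates 2 and 3 but 20.55 and 21.9 between either of them and control replicate 1. It was 2.23 between OGD/R replicates 1 and 2 but 10.9 and 11.6 between either of them and OGD/R replicate 3. Whether 2.37 and 2.23 exceed counting noise therefore depends on what a unit is. By the larger values control replicate 1 and OGD/R replicate 3 stood apart, and values without them are given below.

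Cd83 was listed at 3.04, 4.72 and 3.82 FPKM in control replicates 1, 2 and 3, and at 20.29, 20.20 and 27.06 FPKM in OGD/R replicates 1, 2 and 3. Every OGD/R library lay above every control library: the lowest OGD/R value was 4.28 times the highest control value. The groups do not overlap in either direction in 94.9% of the table's genes, and with OGD/R higher in 48.4%, so this separation is common to a table picked for it. The mean was 3.86 ± 0.841 FPKM in control and 22.5 ± 3.93 in OGD/R (SD, n = 3 each). This is a ratio of 5.83, or 2.54 on the log2 scale.

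The depth behind these values was moderate in control and higher after OGD/R. The 3 control values rested on 60, 100 and 75 counted units, and the 3 OGD/R values on 419, 440 and 603. Exact Poisson intervals at 95% cover counting error only, and they are too narrow if units are both reads of a pair. They ran from 2.32 to 3.91 FPKM in control replicate 1 and from 3.84 to 5.74 in control replicate 2. They ran from 18.4 to 22.2 FPKM in OGD/R replicate 2 and from 24.9 to 29.3 in OGD/R replicate 3. The intervals of OGD/R replicates 1 and 2, whose values were only 0.090 FPKM apart, lay below that of replicate 3. Counting error, with units taken as independent, was 10.0% to 12.9% of each control value, and the SD between control libraries was 21.8% of their mean. In OGD/R counting error was 4.07% to 4.89%, and the SD between libraries 17.5%.

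**Figure D1:**
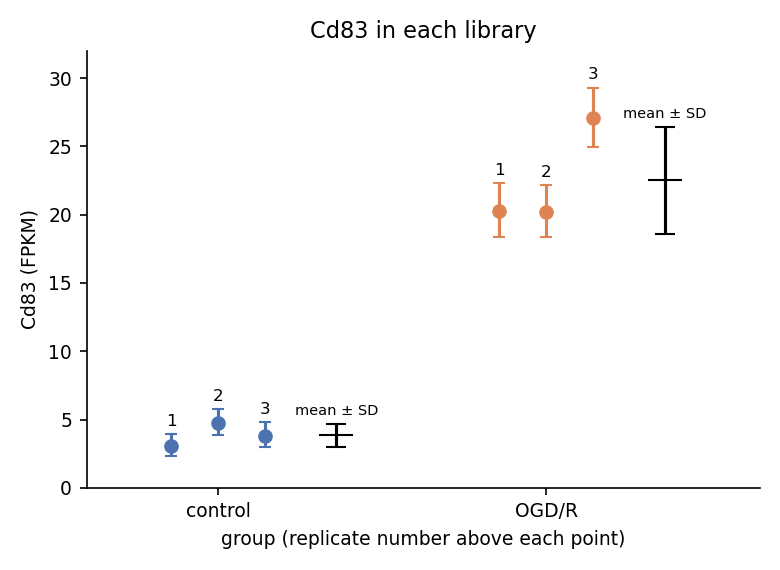
FPKM of Cd83 (vertical axis) in the 3 control and 3 OGD/R libraries. Each point is a library with its replicate number and exact 95% Poisson interval for counting error, with units taken as independent. The black mark beside each group is its mean ± SD. The control points lie between 3.04 and 4.72 FPKM and the OGD/R points between 20.20 and 27.06, with OGD/R replicate 3 highest.

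The libraries that stood apart were also the extremes of Cd83. Control replicate 1 was 28.8% below the mean of the other controls, and OGD/R replicate 3 was 33.7% above the mean of the other OGD/R libraries. The same order, control replicate 1 lowest and OGD/R replicate 3 highest, held in 288 of 852 genes with a mean of at least 1 FPKM, or 33.8%. The reverse order held in 139 of them, or 16.3%. Without both libraries Cd83 went from 4.27 to 20.2 FPKM, a ratio of 4.74. Deviations from the group mean put control replicate 1 with OGD/R replicates 1 and 2, and control replicates 2 and 3 with OGD/R replicate 3. Within the first of these sides Cd83 stood at 3.04 and 20.2 FPKM, a ratio of 6.66, and within the second at 4.27 and 27.1 FPKM, a ratio of 6.34. This division was drawn from the same 6 libraries, and each side holds a single library of 1 of the groups. The ratios within sides are therefore descriptions, and the part of the division in the spread of Cd83 was not tested. With any single library left out the ratio was 5.24 to 6.56.

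By ratio of group means Cd83 lay in the upper part of the table's higher genes, and by level it moved up the table. Of the 399 higher genes with a mean of at least 1 FPKM it ranked 30th by ratio, where the median ratio was 2.48 and the quartiles were 2.22 and 2.90. Among the 188 higher genes with a mean of at least 5 FPKM it ranked 10th. Among all 605 higher genes, which include low genes with control values listed at 0, it ranked 104th. By difference in FPKM, 18.7, it ranked 50th of those 605. Its mean level moved from 479th of the 1228 genes in control to 113th in OGD/R. These ranks describe a table picked on the same samples.

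Named genes next to Cd83 by ratio differed from it in level. Directly above it stood Trem1, an activating receptor of myeloid cells, at 0.497 ± 0.110 FPKM in control and 2.96 ± 0.263 in OGD/R (SD, n = 3), a ratio of 5.97. Above Trem1 came the mitochondrial tRNA gene mt-Ty, with a ratio of 6.19 but OGD/R values of 105.94, 82.85 and 24.11 FPKM, so its libraries spread far more than those of Cd83. Directly below were Klf10, a zinc-finger transcription factor that responds to TGF-beta, with a ratio of 5.29, and Cx3cr1, the fractalkine receptor of microglia, with 4.74. Trem1 and Cx3cr1 had OGD/R means under 3 FPKM, and Cd83 one of 22.5.

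**Figure D2:**
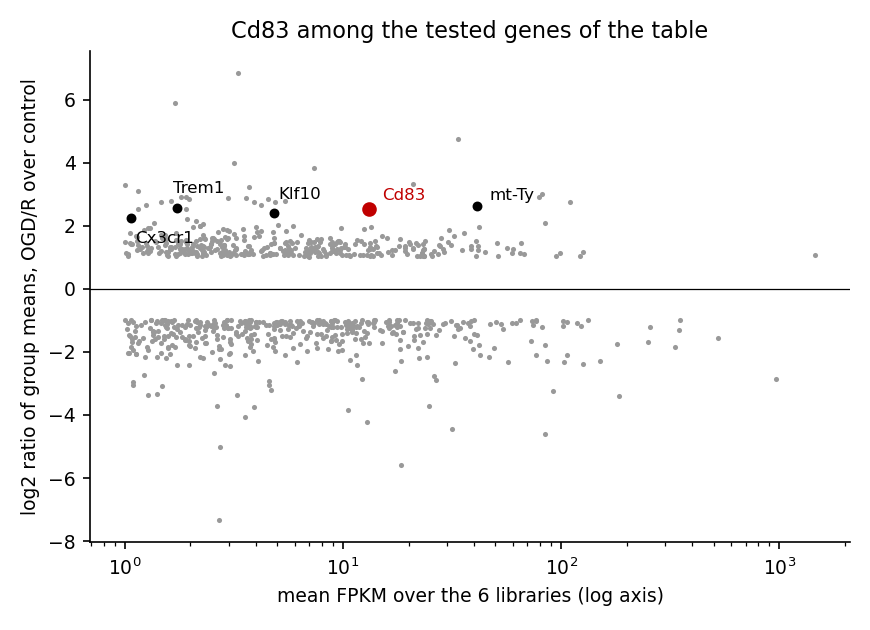
Log2 ratio of group mean FPKM, OGD/R over control (vertical axis), against mean FPKM over the 6 libraries (log horizontal axis) for 847 tested genes with values above 0 in both groups; each point is a gene, Cd83 is red and its neighbours by ratio are black. No gene lies near 0 because the table was picked for a difference, and Cd83 sits at 2.54 with a mean of 13.2 FPKM, to the right of Trem1, Klf10 and Cx3cr1.

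The genes whose profiles over the 6 libraries were most like that of Cd83 were Nr4a1, Thbd, Arrdc4, Cytip and Klf10. Likeness was the root mean square difference of log2(FPKM + 1), taken relative to each gene's control mean, over 634 named genes. It was 0.20 for Nr4a1, 0.25 for Thbd, 0.26 for Arrdc4 and 0.31 each for Cytip and Klf10, against a median of 2.00. Nr4a1, an orphan nuclear receptor induced as an early response gene, was at 0.78, 0.69 and 0.67 FPKM in control and 5.47, 6.73 and 7.96 in OGD/R. Thbd, which encodes the anticoagulant receptor thrombomodulin, was at 0.77, 1.14 and 0.67 FPKM in control and 5.79, 6.28 and 6.85 in OGD/R. In these genes, as in Cd83, OGD/R replicate 3 was the highest library. Arrdc4, an arrestin-domain gene that responds to glucose, was at 1.37 ± 0.0985 and 9.45 ± 0.549 FPKM (SD, n = 3), with OGD/R replicate 1 highest. Cytip, an adaptor that binds cytohesins, was at 1.39, 1.08 and 0.82 FPKM in control and 7.35, 8.83 and 7.70 in OGD/R, so control replicate 1 was its highest control where it was the lowest for Cd83. Klf10 was at 1.03, 1.74 and 1.85 FPKM in control and 7.54, 7.57 and 9.31 in OGD/R, and of these 5 genes it alone had, like Cd83, its lowest control in replicate 1 and its highest OGD/R value in replicate 3. All 5 reached less than 10 FPKM in OGD/R on average. The 1 FPKM added before the log shrinks the changes of low genes most. By plain ratio of group means Nr4a1 stood at 9.42, Thbd at 7.33, Cytip at 7.26 and Arrdc4 at 6.90. Klf10 stood at 5.29 and Cd83 at 5.83, so likeness on this scale is not likeness of ratio. The measure is dominated by the step between the groups, for which Cd83 was chosen, and is a description of 6 libraries.

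**Figure D3:**
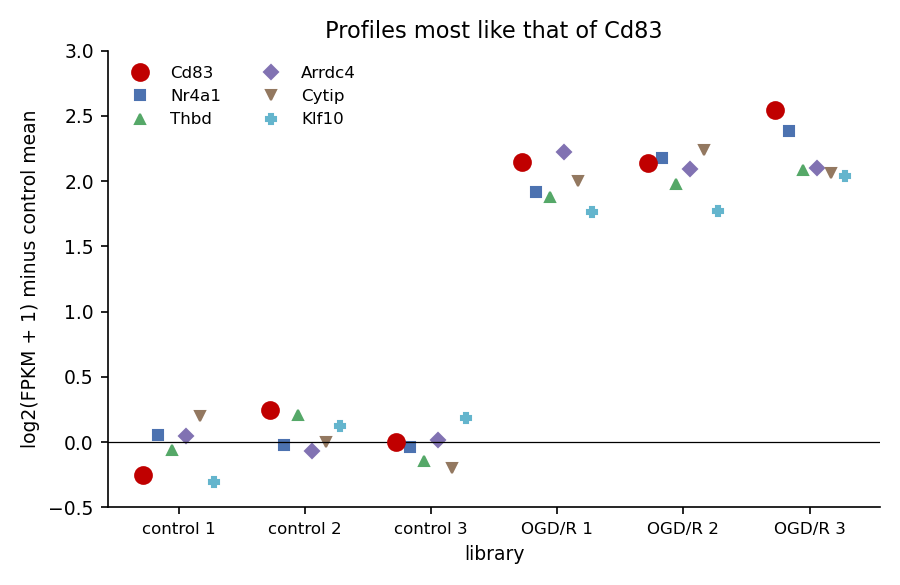
Log2(FPKM + 1) minus the gene's control mean (vertical axis) in each of the 6 libraries (horizontal axis) for Cd83, large red circles, and the 5 genes of most similar profile; each point is 1 library. Cd83 is below its control mean in control replicate 1 and highest of the 6 genes in OGD/R replicate 3 where it stands at 2.54; all points of the OGD/R libraries lie between 1.77 and 2.54.

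Other genes of the table were tested with limma on log2(FPKM + 1), with Benjamini-Hochberg adjustment over the 852 genes whose mean was at least 1 FPKM. An adjusted p under 0.05 was reached by 97.3% of them, 46.6% higher and 50.7% lower. The median log2 fold change of the 852 genes was -0.68. No gene of the table lies near 0, so a median here and below depends on which direction has more genes. With nearly all genes called, a call sets no gene of this table apart. Size is limited too, since the table was picked for a difference on these same samples and small changes are absent. The directions, sizes and adjusted p-values below describe genes so picked.

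Only 3 listed genes that act beside CD83 at the contact with T cells were in the table, and they lay in both directions, as the table's genes did. On a list of 45 genes of antigen presentation and costimulation, 3 were in the table and tested. Of these 1 rose and 2 fell, against 46.6% and 50.7% of all tested genes, with a median log2 fold change of -0.87. Cd80, the ligand of CD28 and CTLA-4, was at 0.85, 1.51 and 1.13 FPKM in control and 2.93, 3.03 and 4.58 in OGD/R (limma, log2 fold change 1.05 ± 0.19 SE, adjusted p = 0.00166). Like Cd83, it was lowest in control replicate 1 and highest in OGD/R replicate 3. Cd40, the receptor through which T cells activate antigen-presenting cells, fell from 4.40, 5.38 and 5.27 FPKM to 1.94, 2.12 and 2.85 (limma, log2 fold change -0.87 ± 0.14 SE, adjusted p = 0.00113). Tnfsf9, which encodes the ligand of 4-1BB, fell from 26.51, 44.07 and 47.01 FPKM to 12.05, 11.71 and 19.14 (limma, log2 fold change -1.39 ± 0.28 SE, adjusted p = 0.00280). For each of the 3 genes the groups did not overlap, as in 94.9% of all genes of the table. Control replicate 1 was lowest and OGD/R replicate 3 highest in all 3, including the 2 that fell. The other listed genes, MHC class II, Cd86 and March1 among them, are not analysed here.

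Cd83 was also set beside the genes of the table whose symbol is Cd and a number. These were chosen by symbol alone, so surface molecules that have a CD number but another symbol, such as Itgb2 (CD18), are left out, and the order below holds only within the 12 genes so named. By mean level Cd83 was 8th of these 12 in control and 2nd in OGD/R, on the FPKM scale, which is per length. In control it stood between Cd38, at 4.12 to 4.26 FPKM, and Cd80, at 0.85 to 1.51. Its own range of 3.04 to 4.72 overlapped those of Cd38, Cd40 (4.40 to 5.38) and Cd52 (2.42 to 7.46). Its place in control relative to these genes is therefore not firm. In OGD/R only Cd200r4 of the 12 was above it, at 28.41 to 38.09 FPKM, and the ranges of Cd83 and Cd200r4 did not overlap. Next below was Cd47, at 12.66 to 13.30 FPKM, also without overlap.

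Apart from Cd83, 11 such genes were in the table and 8 were tested. Of these 3 rose and 5 fell, against 46.6% and 50.7% of all tested genes, with a median log2 fold change of -0.89. Cd38, an enzyme that consumes NAD, rose from 4.18 ± 0.0737 to 9.38 ± 0.125 FPKM (limma, log2 fold change 1.00, adjusted p = 0.000124; SD, n = 3), the smallest spread of the 3 that rose. Cd52, a small glycoprotein of leukocytes, was at 2.42, 7.46 and 5.19 FPKM in control and 9.65, 9.45 and 19.35 in OGD/R, with every OGD/R value above every control value. Its log2 fold change was 1.22 (limma adjusted p = 0.0222). It was 0.86 without control replicate 1 (limma adjusted p = 0.0501) and 0.90 without OGD/R replicate 3 (adjusted p = 0.0609), in a range of 9.32e-05 to 0.0609 over all settings. Without both it was 0.54 (limma adjusted p = 0.0275). These are its lowest control and highest OGD/R library, so the size is smaller by construction, and the call depends on which libraries are kept.

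The 5 that fell were Cd47, Cd300lf, Cd200r4, Cd200r1 and Cd40. Cd47, the ligand of SIRP-alpha that restrains phagocytosis, fell from 27.7 ± 0.913 to 13.1 ± 0.344 FPKM (limma adjusted p = 0.000123; SD, n = 3). Cd300lf, a lipid-binding receptor of myeloid cells, fell from 16.5 ± 4.65 to 7.76 ± 1.98 FPKM (limma, log2 fold change -0.98). Cd200r4 fell from 76.6 ± 19.1 to 32.1 ± 5.25 FPKM (limma, log2 fold change -1.21). It belongs to a family of close paralogs, so its reads may be divided among them and the value is uncertain. In 6 of the 8 tested genes control replicate 1 was lowest and OGD/R replicate 3 highest, against 33.8% of all tested genes. The 3 genes below the minimum, Cd300e, Cd177 and Cd69, had means over the 6 libraries of 0.445, 0.435 and 0.143 FPKM and were not tested. Cd69 was at 0.227 ± 0.0416 FPKM in control and 0.060 ± 0.060 in OGD/R, and it is, like Cd83, an early activation marker of lymphocytes.

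**Figure D4:**
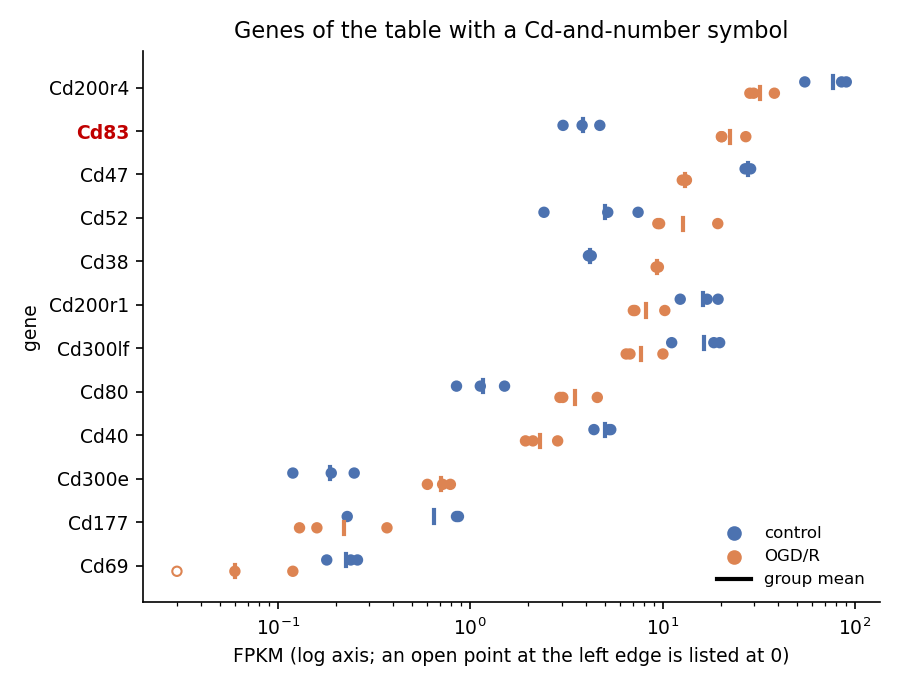
FPKM (log horizontal axis) of the 12 genes of the table whose symbol is Cd and a number, ordered by OGD/R mean; points are libraries, blue for control and orange for OGD/R, vertical ticks are group means, and an open point stands for a value listed at 0. Cd83 moves from among genes of 3 to 5 FPKM to second place among these 12, with Cd38, Cd52 and Cd80 also higher in OGD/R and Cd200r4, Cd47, Cd300lf, Cd200r1 and Cd40 lower.

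Of 32 listed genes of the NF-kB pathway, 2 were in the table and tested, and both were lower, against 50.7% of all tested genes. Relb, a subunit of the alternative NF-kB pathway that is prominent in dendritic cells, fell from 4.30, 4.40 and 3.61 FPKM to 1.73, 2.31 and 2.11 (limma, log2 fold change -0.74 ± 0.12 SE, adjusted p = 0.00125). Nfkbiz, an inducible nuclear regulator of NF-kB, fell from 5.25, 7.64 and 7.84 FPKM to 2.80, 2.73 and 3.98 (limma, log2 fold change -0.92 ± 0.19 SE, adjusted p = 0.00308). Other subunits and inhibitors on the list are not analysed here, so these values do not measure the activity of the pathway.

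Soluble CD83 has been described to bind the MD-2 part of the TLR4 complex. Of 16 listed genes of that complex and its adaptors 3 were in the table. Of these 1 rose and 2 fell, against 46.6% and 50.7% of all tested genes. Irak3, an inhibitory member of the IRAK family, rose from 1.06, 0.69 and 1.57 FPKM to 2.85, 3.73 and 2.89 (limma, log2 fold change 1.00, adjusted p = 0.00192). The adaptors Ticam1 and Ticam2, which carry the signal toward interferon genes, fell with log2 fold changes of -1.10 and -1.25 (limma adjusted p = 0.000152 and 0.000163). In none of these 3 genes was control replicate 1 lowest and OGD/R replicate 3 highest.

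Genes induced early on activation of microglia, a setting in which Cd83 is often listed, were divided in shares close to those of the whole table. Of 39 listed, 17 were in the table and 12 were tested: 5 rose and 7 fell, against 46.6% and 50.7% of all tested genes. Their log2 fold changes ran from 2.16 to -2.21, with a median of -0.98. Over all 17 the groups did not overlap with OGD/R higher in 8 and lower in 9, against 48.4% and 46.5% of all genes of the table. Nr4a1 and Klf10 were among the profiles most like Cd83 on log2(FPKM + 1). They had log2 fold changes of 2.16 and 1.86 and were called higher (limma adjusted p = 7.62e-05 and 0.000144). The chemokine Ccl7 fell from 33.22, 69.34 and 61.87 FPKM to 8.71, 9.58 and 13.98, a log2 fold change of -2.21 (limma adjusted p = 0.000595). Atf3, a stress-induced transcription factor, fell from 77.4 ± 12.5 to 21.2 ± 3.75 FPKM (limma adjusted p = 0.000163; SD, n = 3). Ptgs2, which encodes cyclooxygenase-2, and Klf4 fell with log2 fold changes of -1.55 and -1.48. Among 5 members below the minimum, the cytokine Il6 was at 1.33 ± 0.317 and 0.180 ± 0.139 FPKM, Myc at 0.777 ± 0.110 and 0.147 ± 0.0702, and the cytokine Il1b was listed at 0, 0 and 0.28 FPKM in control and 0.39, 0.93 and 0.67 in OGD/R.

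Over these lists and the genes with Cd symbols together, 26 genes other than Cd83 were tested: 9 rose and 17 fell. Of all 852 tested genes 46.6% rose and 50.7% fell. Among the 26 genes only Nr4a1 had a larger ratio than Cd83. Of the listed genes below the minimum, which were not tested, Il1b had a larger ratio too, 7.11, and Nr4a3 was listed at 0 in every control library. The 8 listed factors that bind or export Cd83 mRNA, such as HuR (Elavl1), are not analysed here.

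**Figure D5:**
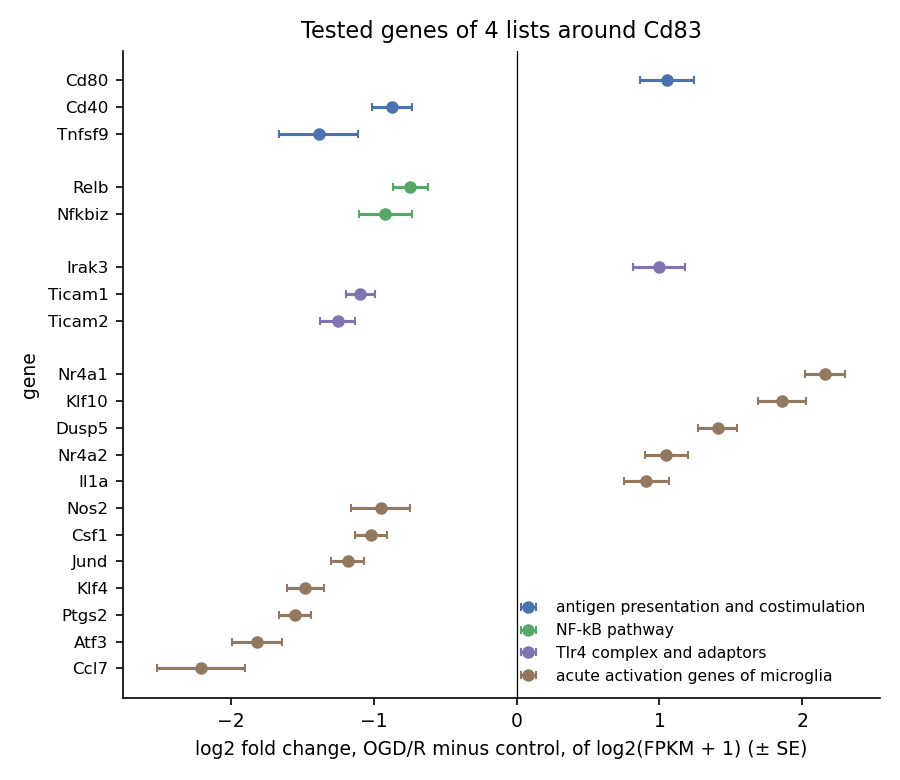
Limma log2 fold change of log2(FPKM + 1), OGD/R minus control (horizontal axis), with its standard error for each tested gene of 4 lists (colours); each point is a gene and Cd83 is left out. Costimulatory, Tlr4-related and early activation genes lie on both sides of 0, and the 2 NF-kB genes lie below it.

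The neighbourhood of Cd83 on chromosome 13 was covered thinly by the table. Of 47 other protein-coding genes annotated with a start within 5 Mb of that of Cd83, 3 were in the table, and all 3 rose, against 46.6% of all tested genes. Gfod1, at 43195245 to 43304172 on the minus strand, had means of 1.47 ± 0.245 and 4.40 ± 0.872 FPKM (limma, log2 fold change 1.12, adjusted p = 0.000523; SD, n = 3). Jarid2, a partner of the Polycomb complex PRC2, at 44729474 to 44921643, rose with a log2 fold change of 0.88 (limma adjusted p = 0.000314). Dek, a chromatin-binding protein, at 47084775 to 47106201, rose from 61.6 ± 6.38 to 128 ± 3.26 FPKM. Their ratios of group means, 2.99, 2.22 and 2.08, were all below the 5.83 of Cd83. Chromosome 13 as a whole had 36 genes in the table, 23 higher and 13 lower, against 605 higher and 623 lower of all 1228 genes. Whether the position of Cd83 has a part in its change was not tested.

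Few markers of cells in which Cd83 is usually studied could be compared. The 13 listed markers of dendritic cells are not analysed here. Of 9 B cell markers 1 was in the table: Ighm, the constant region of IgM, rose from 1.73 ± 0.519 to 3.87 ± 0.770 FPKM (limma adjusted p = 0.00437; SD, n = 3). The table holds 2 of 20 microglial and macrophage markers, Cx3cr1, at 0.373 ± 0.150 and 1.77 ± 0.220 FPKM, and the purinergic receptor P2ry12, at 0.530 ± 0.108 and 1.25 ± 0.324 FPKM. Their summed level was 0.79 to 1.08 FPKM in control and 2.81 to 3.17 in OGD/R. Since the table holds only genes picked for a difference, the label of the line could not be checked against markers with like levels in both groups. Of the other markers, Lck, a kinase of T cells, fell from 2.60 ± 0.629 to 1.00 ± 0.207 FPKM (limma adjusted p = 0.00290; SD, n = 3), and Vwf of endothelium from 3.66 ± 0.645 to 1.44 ± 0.321 FPKM (limma adjusted p = 0.00120). The mast cell protease Cpa3, the neuronal Tubb3 and the precursor marker Cspg4 had control means of 0.837, 0.787 and 0.0867 FPKM and lower values in OGD/R, with no test. The listed astrocyte and fibroblast markers are not analysed here. Whether other cell types take part in the level of Cd83 was not tested, and in bulk RNA more cells with Cd83 and more Cd83 RNA per cell cannot be told apart.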

How the data were processed

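Values for 6 libraries of Bv2 cells, 3 control and 3 OGD/R, came in 1 table of FPKM, scaled for gene length and library size, deposited by the authors to 2 decimals for 1228 genes. GRCm38 is the build in the submitters' processing notes. The sources used here name no aligner, counting tool, strand setting, annotation or rule for picking genes. Per the labels' protocols, 1 ug of RNA entered each library and reads were paired, 150 nt long. GENCODE M21 placed 1227 genes by ID. Library sizes were fitted so that FPKM times exon length gave whole units for values below 15 units; 96.9% to 99.6% were whole within rounding plus 0.03 units, against at most 49.7% at other sizes nearby. Differences were tested with limma 3.58.1 in R 4.3.3 (log2(FPKM + 1), mean of at least 1 FPKM, 2 groups with no covariate, trended eBayes, two-sided, Benjamini-Hochberg, threshold 0.05), after a trial on simulated data. A pseudocount of 1 understates changes of low genes. Cd83 is given with no test. The rest used scipy 1.17.1, numpy 2.4.6, pandas 2.3.3 and matplotlib 3.10.9 under Python 3.11.15.

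Cd83, the 6 lists around it and the 10 cell type lists were chosen with earlier results of these data known. The rule for names took Cd83, the 5 nearest profiles, the 2 genes on each side by ratio, up to 6 called members per list by fold change and up to 3 others by level, the most abundant marker per cell type, and up to 4 neighbours within 5 Mb. P2ry12 was named outside it, after its values were seen. Alternatives covered pseudocount, minimum, scaling, the eBayes trend, a replicate block and each library left out; those on the libraries that stood apart were chosen after seeing the data.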

Additional observations from a re-analysis of the deposited data

How the results depend on the processing

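The log2 ratio of Cd83 was 2.54 as reported. It was 2.25 without control replicate 1 and OGD/R replicate 3 together, by construction, since these are its lowest control and highest OGD/R library. Over all alternatives it ran from 2.25 to 2.71. The separate library sides, a division drawn from these same libraries, gave 2.74 and 2.66. Its rank of 30 became 104 with no minimum, 10 with a minimum of 5 FPKM and 11 by difference of mean log2(FPKM + 1), because each ranks other genes or shrinks low ones, and was 28 to 37 without any 1 library. With a minimum of 5 FPKM, 409 of 423 tested genes of the table were called, in place of 829 of 852. Called list genes were then 1 of 1 tested each for antigen presentation, NF-kB and the Tlr4 complex, and 6 of 6 for acute activation. These stood in place of 3 of 3, 2 of 2, 3 of 3 and 12 of 12. Of 26 tested list genes 25 were called with the same sign under every alternative tried that tested them, and Cd52 was not. With any 1 library left out 789 to 829 of all 852 tested genes were called, so these calls do not set the list genes apart. For replicate numbers 1, 2 and 3 the deviations from the group means correlated at 0.428, -0.349 and 0.375. Between unlike numbers the values ran from -0.628 to 0.479. With 3 libraries per group, of which 1 stood apart, these values cannot show whether the numbers pair the libraries. With the replicate block the log2 ratio of Cd83 was 2.55, and 835 of 852 tested genes were called. Every tested list member was called too: 3 of antigen presentation, 2 of NF-kB, 3 of Tlr4 complex, 12 of acute activation and 8 with Cd symbols. The list of RNA-binding factors gave no value. FPKM are printed to 2 decimals, so values near 0.01 FPKM cannot be ordered.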
